A study of Sus scrofa domesticus with 4 samples.

Results

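The genes described are 7 that store fat in lipid droplets or release it again, measured in explants of pig myometrium, the smooth muscle wall of the uterus. They were chosen by name: PNPLA2, LIPE and MGLL (lipases), PLIN1 and PLIN2 (droplet coat proteins) and DGAT1 and DGAT2 (triglyceride synthesis). Every probe whose RefSeq accession belongs to 1 of them was taken, which gave 10 of the 43603 probes on the array. PNPLA2, MGLL, PLIN1, PLIN2 and DGAT1 had 1 probe each, DGAT2 had 2 and LIPE had 3. Of these, 7 probes of 5 genes were bright enough to be tested, and the probes of PLIN1 and DGAT2 were not.

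Myometrium was taken from 4 pregnant gilts (Large White x Polish Landrace, 7 to 8 months of age, 120 to 130 kg) on days 15 to 16 of gestation. Control explants were kept for 24 h in medium without treatment, and treated explants for 24 h with adiponectin, a hormone of fat tissue, at 10 µg/ml. Both followed a preincubation of 2 h. Each of 4 two-colour arrays held 1 treated and 1 control RNA, so a ratio on an array sets treated against control RNA, with the dyes exchanged on arrays 2 and 4. The labels do not tie an array to a gilt, nor say whether its treated and control RNA shared 1 animal. The p-values therefore measure the spread between these 4 arrays, which may be partly technical. An explant is a slice of whole tissue, so fewer cells of a type and less RNA per cell cannot be told apart.

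Triglyceride is made in the endoplasmic reticulum, where DGAT1 and DGAT2, unrelated enzymes, each add the last fatty acid to diacylglycerol, and it is packed into droplets coated by perilipins. PLIN1 is the coat protein of fat cells and PLIN2 that of most other cells. Breakdown runs in sequence: PNPLA2 (adipose triglyceride lipase) takes off the first fatty acid, LIPE (hormone-sensitive lipase) acts mainly on the diacylglycerol left, and MGLL (monoacylglycerol lipase) splits the last monoacylglycerol into a fatty acid and glycerol. MGLL also degrades the endocannabinoid 2-arachidonoylglycerol.

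None of the 7 tested probes was called higher or lower after adiponectin. The log2 change, treated over control, was -0.51 ± 0.33 (moderated SE, n = 4 arrays) for PNPLA2, -0.30 ± 0.16 for PLIN2 and 0.24 ± 0.22 for MGLL. DGAT1 lay at -0.04 ± 0.18. The brightest LIPE probe lay at -0.15 ± 0.16. The limma adjusted p lay between 0.856 and 0.992 over the 7 probes, and the adjustment ran over all 22129 tested probes. Limma called 0% of all tested probes. At an unadjusted p under 0.05 it counted 0 of the 7 probes, against 5.71% of all tested probes (3.79% higher and 1.92% lower). PNPLA2, MGLL and PLIN2 each fell below that unadjusted limit in 1 alternative, given with each gene. Treated and control levels overlapped for each of the 7 probes, and did not overlap for 0.845% of all tested probes. The median change was -0.15 over the 5 genes (1 probe each) and 0.00 over all tested probes, and 4 of the 5 genes lay below 0, against 50.5% of all tested probes. Only the LIPE probe A_72_P440336 had the same sign on all 4 arrays, 1 of 7 where 12.6% of all tested probes did so.

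**Figure D1:**
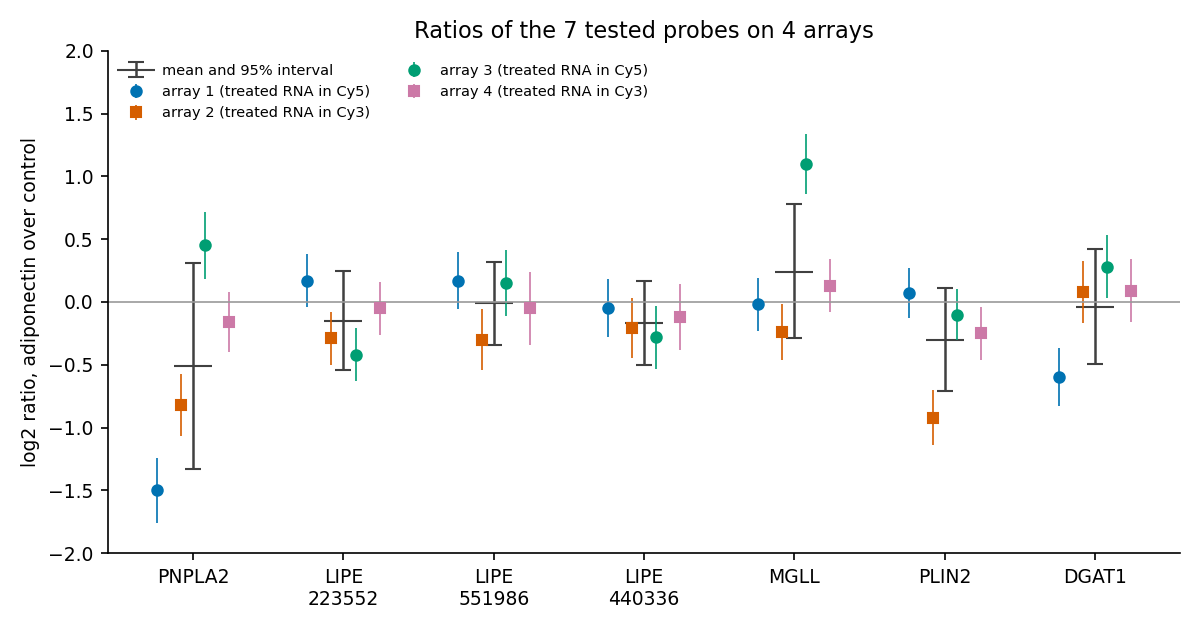
Log2 ratio of adiponectin-treated over control RNA (vertical axis) for the 7 tested probes. Coloured points are the 4 arrays with the scanner software's error of the single spot, and black marks are the fitted mean with its 95% interval. Every interval includes 0, and the PNPLA2 points run from -1.50 to 0.45.

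The first enzyme of lipolysis, PNPLA2, had the widest range over the arrays among the 7 tested probes. Its ratio was -1.50 on array 1, -0.82 on array 2, 0.45 on array 3 and -0.16 on array 4. Signals here are the intensities that the scanner software corrected for background and dye. The PNPLA2 control signal was 260, 150, 85.6 and 113 on arrays 1 to 4, and the treated signal was 92.3, 84.5, 117 and 101. The spread was thus mainly on the control side. On the level scale (log2 of the signal minus the array's 75th percentile in that dye), control values spanned 1.41 and treated values 0.51, and the groups overlapped. The 95% interval of the change, from -1.33 to 0.31, runs from 0.399 to 1.24 times the control signal (unadjusted p = 0.176, adjusted p = 0.867 by limma). An exact two-sided sign-flip permutation test over the 4 arrays gave p = 0.375, where 0.125 is the smallest value it can give. This estimate moved most when array 1 or array 3 was left out. Without array 1, which gives array 3 more weight, the change was -0.02. Without array 3, which gives array 1 more weight, it was -1.0 (unadjusted p = 0.00285, adjusted p = 0.298 by limma). With the other intensity correction (normexp with an offset of 50, then loess) it was -0.22, with ratios of -0.59, -0.48, 0.30 and -0.10. Which step of that correction moved it was not tested.

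The next lipase, LIPE, had 3 probes, all to the same transcript accession and all well above background on every array. The brightest, A_72_P223552, gave ratios of 0.17, -0.29, -0.42 and -0.05 on arrays 1 to 4, from control signals of 404, 581, 436 and 411 and treated signals of 454, 475, 326 and 396. Probe A_72_P551986 gave 0.17, -0.30, 0.15 and -0.05, and probe A_72_P440336 gave -0.05, -0.21, -0.28 and -0.12. The probes differed in sign on array 3, where 2 lay below 0 and 1 above, and on array 1. They were alike on arrays 2 and 4, where all 3 lay below 0. Their log2 changes were -0.15, -0.01 and -0.17, with intervals from -0.54 to 0.25, from -0.34 to 0.32 and from -0.50 to 0.17. The mean of the 3 probes was -0.11. The value of A_72_P223552 was 0.00 without array 3, which gives array 1 more weight. It was -0.30 without array 1, which gives array 3 more weight. Of the 3, A_72_P440336 had the narrowest spread, with an SD of 0.10 over the arrays and an exact sign-flip p of 0.125.

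The last lipase, MGLL, stood out on 1 array. Its ratio was 1.10 on array 3, and -0.02, -0.24 and 0.13 on arrays 1, 2 and 4. On array 3 the control signal was 172 and the treated signal 367, while on array 1 they were 454 and 448, on array 2 they were 176 and 150, and on array 4 they were 282 and 308. The treated signal of array 3 thus lay between those of arrays 1 and 4, and its control signal was the lowest of the 4. The fitted dye coefficient of MGLL, positive where ratios are higher with treated RNA in Cy5, was 0.30 ± 0.22. The change of 0.24 had an interval from -0.29 to 0.78, a fold between 0.816 and 1.71 (adjusted p = 0.891 by limma). Without array 3 it was -0.04, and without array 1, which gives array 3 more weight, it was 0.52 (unadjusted p = 0.0273, adjusted p = 0.561 by limma).

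Of the droplet coat proteins, PLIN2 was bright on every array. The control signal was 1643, 1953, 1249 and 3174 on arrays 1 to 4, and the treated signal was 1720, 1035, 1169 and 2672. The highest values of both groups came from array 4, and the level of the control spanned 1.47 on the log2 scale over the arrays, a 2.76-fold range of scaled signal. Array 4 was alone on slide 2, so slide and tissue cannot be told apart for this high level. The ratio was 0.07, -0.92, -0.10 and -0.25, so array 2 was the lowest and array 1 lay slightly above 0. Arrays 2 and 4, with treated RNA in Cy3, had the lowest ratios. The fitted dye coefficient, positive where ratios are higher with treated RNA in Cy5, was 0.28 ± 0.16. The change of -0.30 had an interval from -0.71 to 0.11 (unadjusted p = 0.122, adjusted p = 0.856 by limma, exact sign-flip p = 0.25). It was -0.13 without array 2 and -0.47 without array 4, and -0.29 with normexp and loess (unadjusted p = 0.0418, adjusted p = 0.959 by limma).

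The fat cell perilipin PLIN1 was not well above background on any array in either channel. Its processed signals lay between 5.01 and 9.29, and the software gave a ratio of 0 on all 4 arrays, the value these files hold for spots without signal. No fold is given for this gene.

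Of the enzymes of triglyceride synthesis, DGAT1 was well above background throughout. The treated signals of 138, 100, 131 and 105 gave levels within 0.19 of each other on the log2 scale. The control levels were -0.97, -1.60, -1.74 and -1.73 on arrays 1 to 4, with array 1 above the other 3, and spanned 0.76. The ratio was -0.60 on array 1 and 0.08, 0.28 and 0.09 on the others. The change of -0.04 had an interval from -0.49 to 0.42, a fold between 0.712 and 1.34 (adjusted p = 0.979 by limma). It was 0.18 without array 1 and -0.26 without array 3.

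DGAT2 was too dim to be tested, and its 2 probes disagreed in level on array 3. Probe A_72_P288804 had control levels of -5.38, -3.69, -2.03 and -4.94 and treated levels of -4.04, -5.25, -1.85 and -4.80 on arrays 1 to 4. Both channels of array 3 were thus the highest, and array 3 was the 1 array where both channels were well above background. Its scaled control level spanned 3.35 on the log2 scale, a 10.2-fold range. Probe A_72_P564909, with the same accession, showed no such rise on array 3. It gave control signals of 34, 41, 29.4 and 19.5 and treated signals of 38.6, 26.3, 25.8 and 10.3. The ratios of A_72_P288804 were 1.33, -1.55, 0.19 and 0.16, and the spot error was 0.26 on array 3 and between 0.69 and 1.09 on the other arrays. The ratios of A_72_P564909 were 0.18, -0.64, -0.19 and -0.93, with spot errors between 0.38 and 0.91. The 2 probes thus shared the sign on arrays 1 and 2 and differed in it on arrays 3 and 4. On arrays 1 and 2 only the Cy5 channel was well above background for both probes. It held treated RNA on array 1 and control RNA on array 2, so the shared sign turned with the dye. A dye offset and a change with treatment cannot be told apart there. No test is given for either probe.

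**Figure D2:**
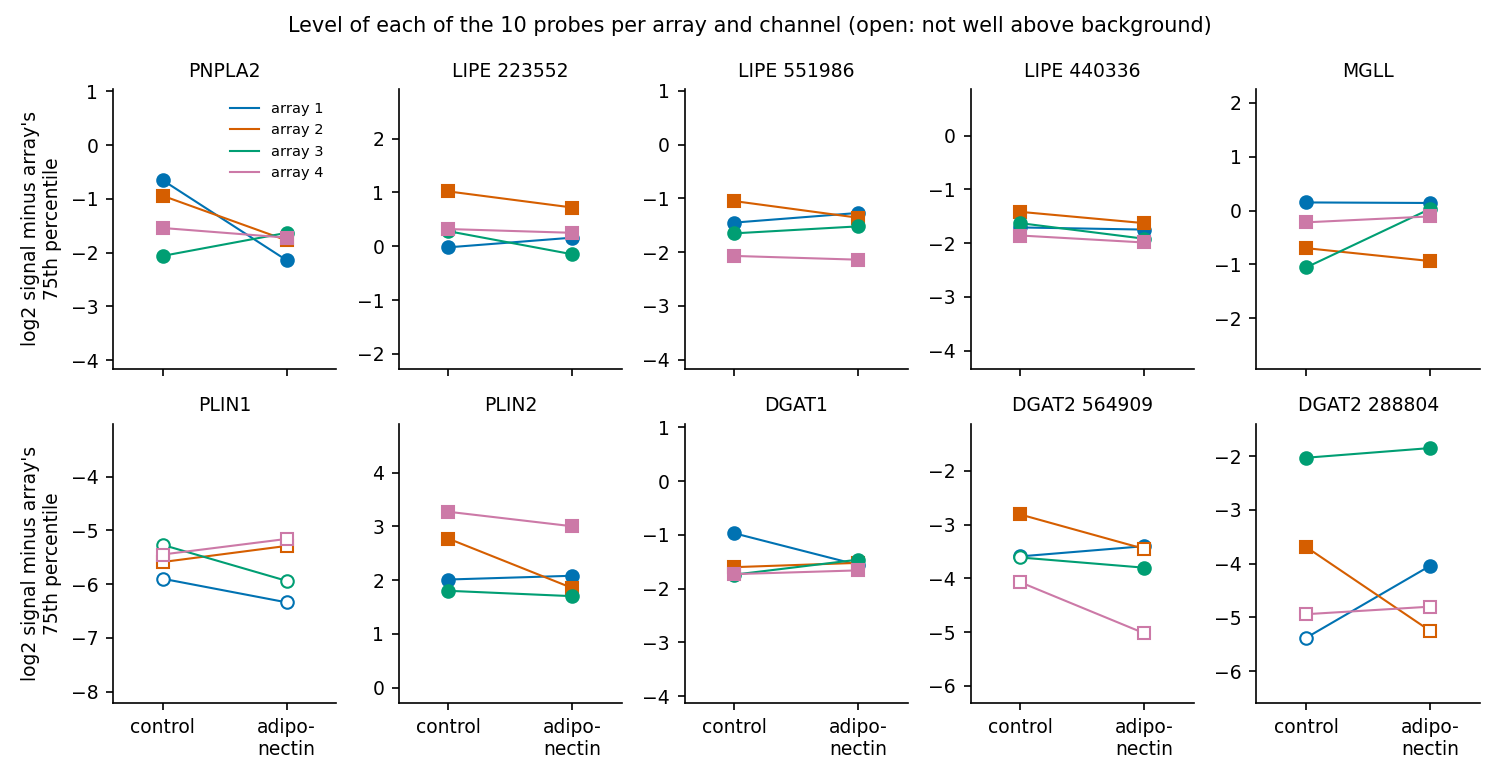
Level of each of the 10 probes in control and adiponectin-treated RNA (log2 signal minus the array's 75th percentile in that dye, vertical axes of equal span). Lines join both RNAs of an array, circles are arrays with treated RNA in Cy5, squares those with it in Cy3, and open symbols were not well above background. PNPLA2 and DGAT1 spread more in control than in treated RNA, and DGAT2 probe A_72_P288804 was highest on array 3 in both. Levels of different probes are not comparable.

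Part of the spread between arrays was larger than the error of a single spot. Arrays 1 and 3 carried the dyes the same way, so their difference holds no dye offset. It was 1.94 for PNPLA2, 5.23 times the combined spot error of 0.37, and 1.11 for MGLL, 3.54 times the combined error of 0.31. These 2 of the 7 tested probes lay past 3 combined errors, where 10.9% of all tested probes did. The 3 LIPE probes (1.99, 0.0593 and 0.678 times), PLIN2 (0.56 times) and DGAT1 (2.61 times) did not. Between arrays 2 and 4, which share the other orientation, no member passed 3 combined errors, against 3.85% of all tested probes. PLIN2 came nearest, with a difference of 0.67 that was 2.21 times its error. The whole range over the 4 arrays was above 1.5 on the log2 scale for PNPLA2 alone among the 7 probes, against 11.7% of all tested probes, and above 1 for PNPLA2 and MGLL, against 30.8%.

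Marker genes of the cell types in an explant were set beside these array values, from lists that hold 2 to 8 tested genes. All 7 tested of 12 smooth muscle markers, among them the actin ACTA2 and desmin (DES), were well above background on every array. Their median ratio was -0.66, -0.15, 0.58 and -0.25 on arrays 1 to 4, highest on array 3 as for PNPLA2, MGLL and DGAT1, and lowest on array 1 as for PNPLA2 and DGAT1. Summed over the 7 genes, the signal lay between 270039 and 563069 in control and between 316878 and 490474 in treated RNA. All 8 tested of 12 macrophage markers had a change above 0, between 0.01 and 1.2. None passed the test, and 3 (CD163, VSIG4 and AIF1) had an unadjusted p under 0.05 by limma. Their median ratio was 0.51, -0.26, 2.29 and 0.63, the same order of arrays as for MGLL, with array 3 highest, then 4, 1 and 2. Their summed signal lay between 1745 and 5084 in control and between 1860 and 8623 in treated RNA. Endometrial epithelium markers (5 tested of 10) had medians of -0.09, 0.81, -0.70 and 0.69. These were lower on arrays 1 and 3, with treated RNA in Cy5, than on arrays 2 and 4, with it in Cy3. A dye offset and a difference in tissue cannot be told apart here. The median change of the endothelium list was 0.14 (5 tested of 10), that of the stroma list -0.13 (3 of 9) and that of the lymphocyte list 0.00 (2 of 10), with 0 called in each. LIPE (brightest probe) and PLIN2 did not share the array order of the smooth muscle or macrophage lists. Both were highest on array 1, and LIPE was lowest on array 3 and PLIN2 on array 2. The order for LIPE, with array 1 highest, then 4, 2 and 3, was that of the stroma medians (0.47, -0.28, -0.34 and -0.16). The adipocyte medians, given below, had it as well. LIPE probe A_72_P440336 shared this order, and A_72_P551986 did not. These orders rest on 4 values each, and the share of all tested probes with the same order was not counted. The part of any of these cell types in the values of PNPLA2, LIPE, MGLL or DGAT1 was not tested.

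Markers of fat cells were detected in part. Of 12 adipocyte markers 10 had a probe and 4 were tested (LEP, FABP4, PPARG and GPD1), a gene counting when any of its probes was tested. Of all single probes on the array 50.8% were tested, which is a share of probes and not of genes. The 4 genes had a median ratio of 0.21, -0.16, -0.23 and 0.16 on arrays 1 to 4. The brightest LIPE probe had the same order of arrays, which rests on 4 values. The summed signal of the 4 marker genes lay between 543 and 726 in control and between 558 and 636 in treated RNA. The droplet protein CIDEC, the glycerol channel AQP7 and resistin (RETN) were not well above background on any array, as for PLIN1. Adiponectin itself (ADIPOQ) and the fatty acid importer CD36 were so on at most 1 array in a group, and lipoprotein lipase (LPL) on at most 1 control array.

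**Figure D3:**
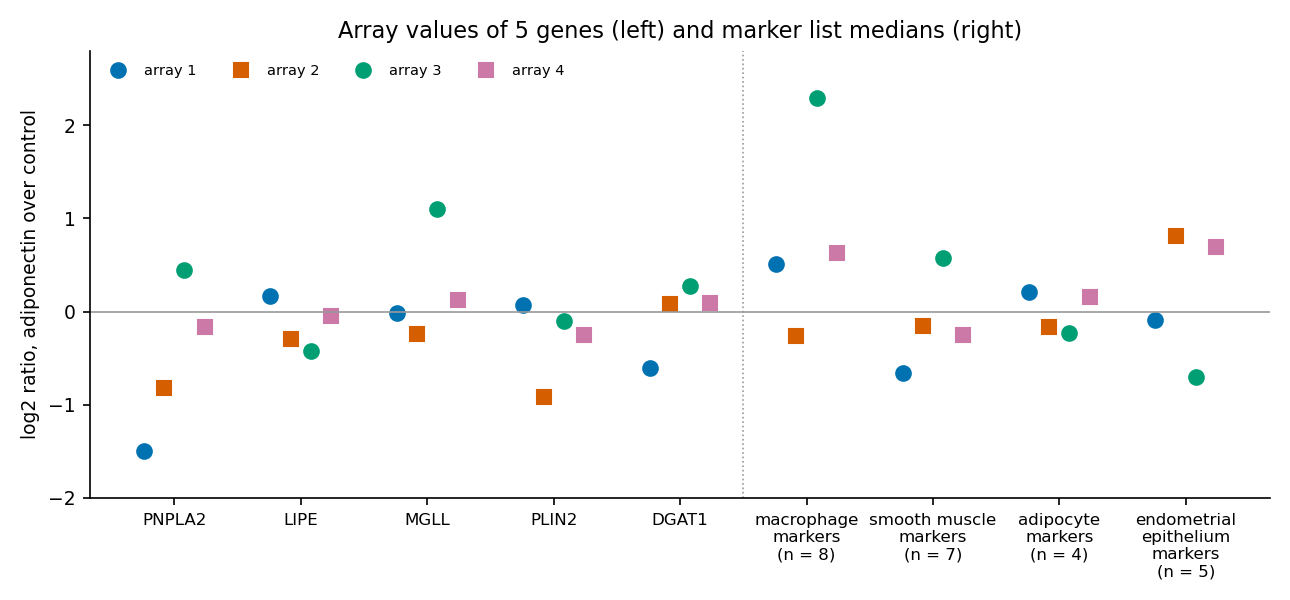
Log2 ratio of treated over control RNA on each array for the 5 tested genes (1 probe each, left of the dotted line) and the median ratio of 4 marker lists (right, n is the number of tested genes). On array 3 MGLL stood at 1.10 and the macrophage median at 2.29, and on array 1 PNPLA2 stood at -1.50 and the smooth muscle median at -0.66. LIPE and PLIN2 were highest on array 1.

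The rest of the pathway also gave no call. Of 19 other droplet coat proteins and droplet regulators 6 were tested, 2 above 0 and 4 below, with a median of -0.11 and 0 called in either direction. The smallest unadjusted p in this list was that of BSCL2 (seipin, which shapes budding droplets), at -0.43 ± 0.21 with ratios of -0.62, -0.90, 0.44 and -0.62. FITM1, a fat storage protein of the endoplasmic reticulum, followed at -0.21 ± 0.16. ABHD5, the coactivator of PNPLA2, was looked up after its values were seen and lay at 0.10 ± 0.15. Of 18 other enzymes of glycerolipid synthesis 11 were tested, 2 above 0 and 9 below, with a median of -0.14 and 0 called. AGPAT5, an acyltransferase that makes phosphatidic acid, lay at 0.24 ± 0.14, and LPIN3, a phosphatidate phosphatase of the lipin family, at -0.26 ± 0.17. Of 23 other lipases and regulators of lipolysis 8 were tested, 3 above 0 and 5 below, with a median of -0.07 and 0 called.

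In that last list PNPLA4, a lipase relative of PNPLA2, lay at 0.37 ± 0.26 (unadjusted p = 0.201 by limma), with ratios of 1.12, -1.04, 0.96 and 0.44. It was well above background on 3 treated and 2 control arrays.

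**Figure D4:**
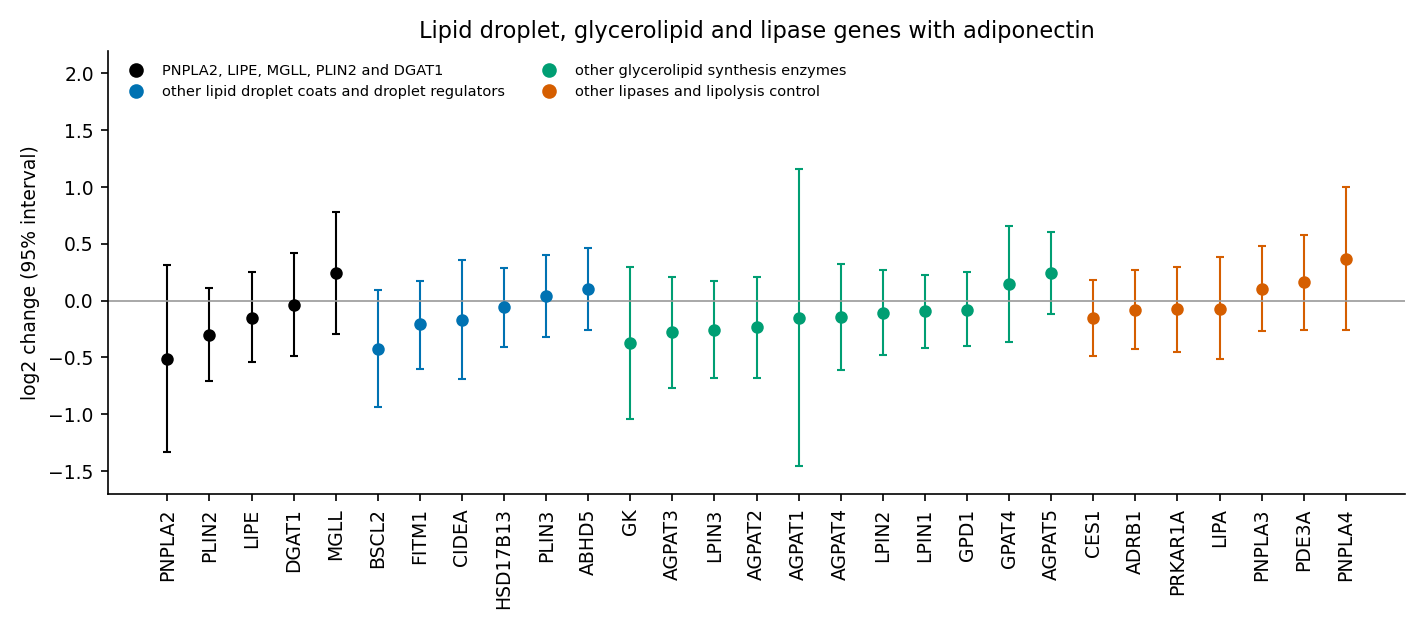
Log2 change with adiponectin (points, 1 probe per gene) and 95% interval (bars) for the 5 tested genes (black) and genes of 3 pathway lists (colours). BSCL2 stands at -0.43 and PNPLA4 at 0.37, and none of the genes drawn passed after adjustment over all tested probes.

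Since PNPLA2 had the widest range among the tested probes, the genes with the most similar ratios were listed for it among 2106 other named genes. Likeness was the root mean square difference of the 4 ratios. The 5 nearest were MFGE8, a milk fat globule protein that bridges dying cells to phagocytes (0.18), CTSA, a lysosomal carboxypeptidase (0.21), and the kinase AKT1 (0.24). ACSL1, which activates long-chain fatty acids with coenzyme A, and PDZK1IP1 followed (both 0.25). ACSL1 stood at -1.81, -0.60, 0.23 and -0.38 on arrays 1 to 4, and MFGE8 at -1.57, -0.93, 0.47 and -0.49. They were chosen for this likeness from 4 values each, so it is a description only.

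**Figure D5:**
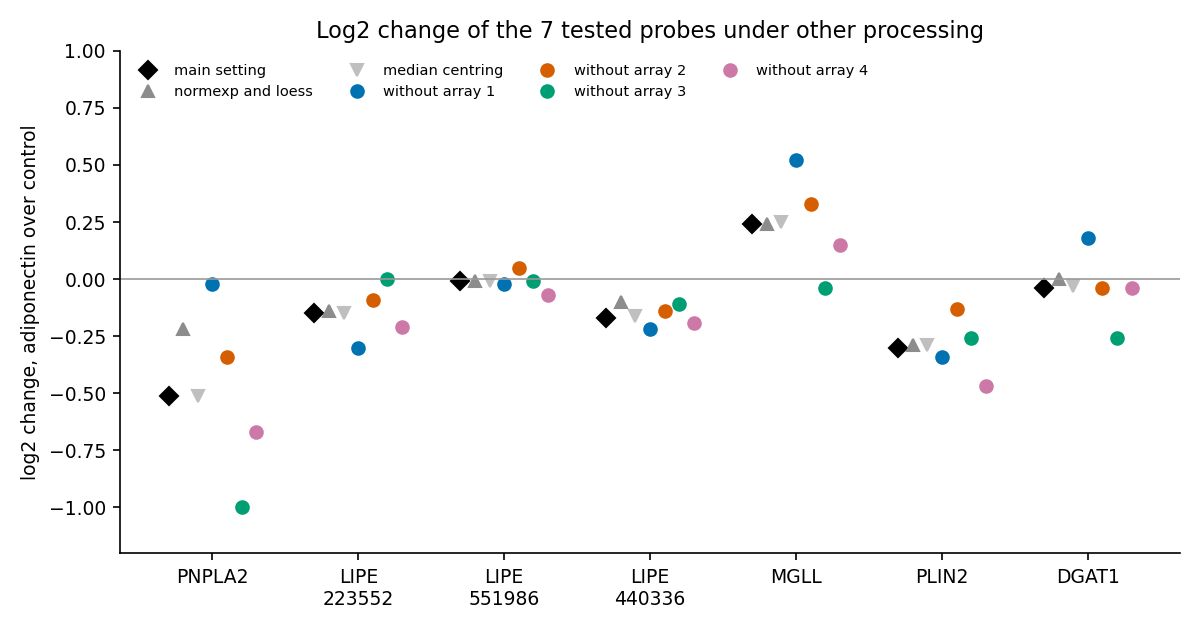
Log2 change of the 7 tested probes (vertical axis) in the main setting, with other normalisations, and without each array in turn. PNPLA2 moved between -1.0 and -0.02 and MGLL between -0.04 and 0.52 when 1 array was left out, while the 3 LIPE probes stayed between -0.30 and 0.05.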

How the data were processed

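The deposited scanner files hold intensity per spot and channel, and a log10 ratio of Cy5 over Cy3 signals, background-subtracted and dye-normalised with Agilent Feature Extraction 10.7.3.1, per the file headers. The deposited series table holds log2 ratios. For probes bright in both channels 100% of its values, rounded, lay within 0.01 of the turned scanner ratios (log2 scale, slope 1 on every array). Its medians were -0.10, 0.13, -0.14 and 0.16, and how dim probes were treated is not given in the sources used here.

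Log10 ratios were divided by log10(2) and turned so that each is treated over control, by the dye fields of the labels. The labelling protocol's text names only treated RNA in Cy5. Control and outlier-marked spots were left out. Tested were the 22129 probes (50.8%) with a value on every array that passed the software's background flag in 1 of the groups on 3 or more arrays. Well above background were between 46.1% and 63.1% of the spots per channel, no spot was saturated, and ratios of exactly 0 made up between 18.1% and 28.9%. The number of arrays limits the precision, and the 95% interval of a median probe extended 0.39 above and below its change.

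Limma 3.58.1 (R 4.3.3; lmFit, eBayes) fitted treatment and a dye coefficient, two-sided, Benjamini-Hochberg, threshold 0.05, and was tested on simulated data. Sign-flip tests used scipy 1.17.1. Arrays 1 to 3 shared slide 1, and array 4 was on slide 2. Each slide held both conditions. Pearson's r of the ratios between arrays over tested probes, which are not independent, lay between -0.31 and 0.25. RefSeq accessions were named through a table of Sscrofa11.1 (6700 of 7125 matched). No coordinates are given because the files name no build. The brightest tested probe stood for a gene. Named were the 7 genes, the 2 smallest p-values per pathway list (1 such gene is not reported here), and the 5 patterns nearest to the tested gene of widest range. Members, lists and tests were chosen with earlier results of these data known. Alternatives were normexp (offset 50) with loess, median centring, the series table, no dye coefficient, other filters, slide, and omission of each array.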

Additional observations from a re-analysis of the deposited data

How the results depend on the processing

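No member was called in any alternative run for the 7 tested probes. Leaving out 1 array gave between 0 and 12 called probes over the whole array, the 12 without array 3, and none of these was a member. The cause was not tested. The direction turned for 3 of the 7 probes, each with 1 array left out, where the array then alone in its dye orientation gains weight. Leave-one-out values ran from -0.07 to 0.05 for LIPE probe A_72_P551986, from -0.04 to 0.52 for MGLL and from -0.26 to 0.18 for DGAT1. PNPLA2 ran from -1.0 to -0.02 and was -0.22 with normexp and loess, where DGAT1 was 0.00 and LIPE probe A_72_P440336 -0.10. The other filters and the fit without a dye coefficient leave each change as it is by construction. Slide as a block equals the omission of array 4 by construction, and gave -0.67 for PNPLA2, -0.47 for PLIN2, 0.15 for MGLL, -0.04 for DGAT1 and -0.21 for LIPE probe A_72_P223552. At an unadjusted p under 0.05, the main setting counted 1263 of 22129 probes. Counts differed from this by over 1.5 times without array 3 (2393) and without array 4 (694). Without the filter on dim probes the count was 3162, but of 43394 probes, so these 2 counts are not directly comparable. The excess of higher over lower probes, 838 against 425, shrank to 1644 against 1518 without the filter and to 1303 against 1090 without array 3. The fit on ratios is paired by array, and no pairing by animal was possible because the labels do not tie arrays to gilts.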
